A study of Homo sapiens with 11 samples.

Results

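Complement genes were followed in THP-1 cells, an established human monocytic leukaemia line, grown as monocytes or turned into macrophages and given vehicle or dexamethasone. The set was chosen by name and held 31 probes for complement components, the lectin pathway, complement receptors and complement regulators, out of 594 endogenous probes on an immune gene panel. Of these 31 genes, 11 reached a mean of 20 normalized units in at least 1 group and 20 did not. Those 11 were C1QB, C2, C1QBP, C3, CFD, CFP, C5, CR1, CD46, CD55 and CD59. Expression was read on the NanoString nCounter, a hybridization assay that counts colour-barcoded probes without amplification, from 50 ng of total RNA. Mono_Vehicle and Mono_Dex were undifferentiated THP-1 cells given vehicle or the synthetic glucocorticoid dexamethasone (Dex, 100 nM) for 6 h. Mac_Vehicle and Mac_Dex were THP-1 cells exposed to the phorbol ester PMA for 3 h and rested for 24 h, then given vehicle or 100 nM Dex for 6 h. The cells of all 4 groups had first spent 24 h in charcoal-stripped medium. Each group held 3 samples except Mac_Dex, which held 2. The design text names 12 samples; the authors left out 1 Mac_Dex sample because it grouped with vehicle-treated macrophages and its FKBP5 did not rise, so the macrophage responses to Dex come from samples kept on their response.

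Complement is a cascade of plasma proteins that marks targets for uptake and can pierce membranes. The classical pathway starts with C1q, the lectin pathway with mannose-binding lectin and the alternative pathway with factor B and factor D, and all 3 converge on cleavage of C3 and then of C5. Membrane proteins such as CD46, CD55 and CD59 protect the cell's own surface. The liver makes most plasma complement, while monocytes and macrophages are a local source of C1q, properdin and C3.

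The labels were checked on FKBP5 and on marker lists of cell types. These are outside the set except for CR2 in the B-cell list and VTN and MBL2 in the endothelial, platelet and hepatocyte-type list. FKBP5, a classic glucocorticoid-induced gene, had means of 1237 ± 27.9 units in Mono_Vehicle and 24908 ± 79.2 in Mono_Dex, and of 488 ± 117 in Mac_Vehicle and 37671 ± 516 in Mac_Dex (SD; n = 3, and 2 for Mac_Dex). In Mac_Dex this checks nothing, since samples there were kept for their FKBP5. Of 12 monocyte and macrophage markers on the panel, 8 reached 20 units in each monocyte group and 11 in each macrophage group, and the mannose receptor MRC1 stayed near the lowest value of the table in all groups. The 8 were not the same genes. CD14 had means of 53.5 units in Mono_Vehicle and 18.3 in Mono_Dex, and CD163 of 1.00 and 39.3. In Mac_Vehicle and Mac_Dex the means were 188 and 43.9 for CD14, and 177 and 653 for CD163. The T-cell markers CD3E, CD3D and CD2 and the B-cell marker MS4A1 had group means of at most 4.83 units. In the other lineage lists, 2 of 10 T-cell, 2 of 6 B-cell, 2 of 5 NK-cell and 1 of 5 endothelial, platelet and hepatocyte-type genes reached 20 units in some group. In the T-cell list these were CD4, with group means of 588 to 721 units, and CD3EAP, with 66.9 to 171. The monocyte samples had total signals of 372345 to 420466 units, the macrophage samples 742895 to 889658. The highest negative control was listed at 15.6; the sources used here do not say whether control rows are scaled like the genes, and multiplied by its sample's factor it would stand at 18.9 units. The labels do not state that replicates came from separate cultures, and the spread behind each p-value may be technical.

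Most of the complement cascade was not detectable at the floor. The share of complement genes under 20 units in every group was 64.5%, 20 of 31, against 36.2% of the panel. The silent genes included the C1 proteases C1R and C1S, the C4A/B probe, which covers a gene pair, and all 3 lectin-pathway genes, MBL2, MASP1 and MASP2. They included factor B (CFB), which supplies the catalytic subunit of the alternative convertase. The terminal genes C6, C7, C8A, C8B, C8G and C9, whose proteins build the membrane attack complex, were silent too. So were the B-cell receptor CR2 and the soluble regulators SERPING1, C4BPA, CFI, CLU and VTN. Of the 20, 4 genes, C1R, MBL2, C8B and CR2, sat at their sample's lowest value in all 11 samples. MASP1, MASP2, C7, C8A, C4BPA and VTN did not reach 10 units in any sample either, which makes 10 of 20. Single samples passed the floor for C6, at 27.8 units in Mac_Vehicle replicate 3, and for SERPING1, the inhibitor of the C1 proteases, at 25.0 units in Mac_Vehicle replicate 1. Nearest to the floor lay C6 with a highest group mean of 19.3 units and SERPING1 with 18.6 below it, and CR1 with 20.9 and C1QB with 37.7 above it. A value under the floor therefore says that a transcript was not detectable here, not that it was absent.

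**Figure D1:**
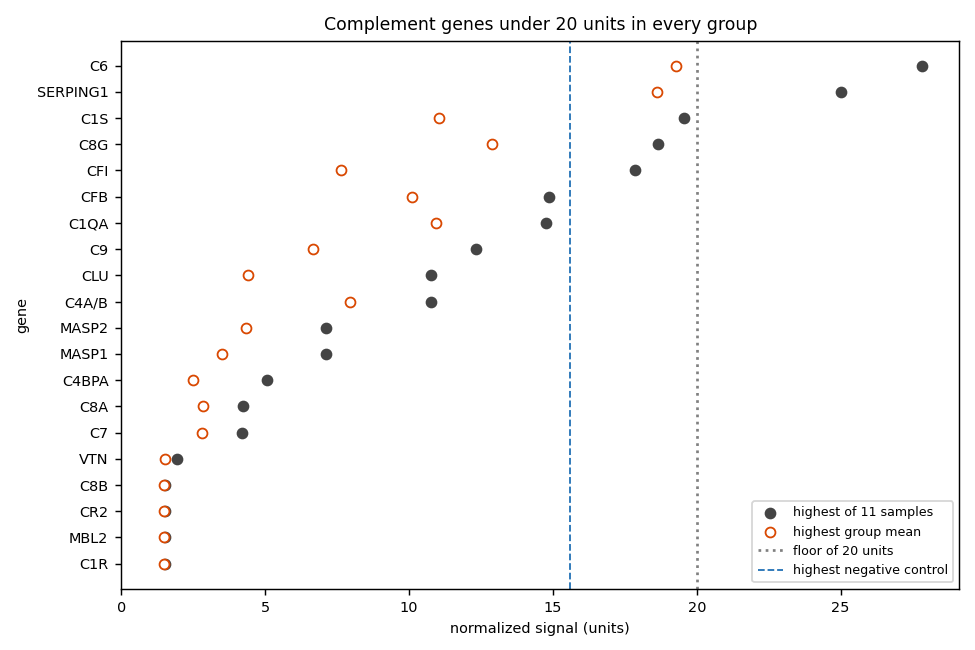
Highest single-sample value (filled points) and highest group mean (open points), in normalized units, for the 20 complement genes under 20 units in every group. C6 and SERPING1 passed the dotted floor of 20 units in a single sample, the dashed line marks the highest listed negative control (15.6), and C1R, MBL2, C8B and CR2 lay at the bottom of the scale.

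Genes above and below the floor share chromosomal clusters. The RefSeq annotation of GRCh38.p14 places C2 on chromosome 6 at 31897783 to 31945672, directly before the silent CFB at 31946095 to 31952084. The regulator cluster on chromosome 1 holds C4BPA (207104233 to 207144972), CD55 (207321678 to 207360966), CR2 (207454328 to 207489892), CR1 (207496157 to 207641765) and CD46 (207752038 to 207795516). Within it, CD55, CR1 and CD46 reached the floor while C4BPA and CR2 did not. C1QA at 22636463 to 22639678 on chromosome 1 was under the floor, and C1QB, in the same C1q gene cluster at 22653236 to 22661637, was detected in Mac_Dex.

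Dex raised CFP in both cell states and raised C1QB, C5, CFD and CD59 in macrophages, while C3, CD59 and C1QBP fell in monocytes. In monocytes, 2 of the 11 tested genes were called higher and 3 lower at a limma adjusted p under 0.05. The higher calls included C1QB, which lay under the floor in both monocyte groups and was tested through Mac_Dex alone; with a floor of 50 units, which leaves it out, 1 was higher and 3 lower. Over the panel, 39.1% of 379 tested probes were called, 16.9% higher and 22.2% lower, so the count among complement genes lay close to the panel's. In macrophages, 5 rose and 0 fell at the limma adjusted threshold, and the same 5 to 0 held at an unadjusted p under 0.05. The 5 also include C1QB, tested only through Mac_Dex, the group in which it was high. With the floor of 50 units, 4 rose and 0 fell. On the panel 47.5% of probes were called, 22.4% higher and 25.1% lower. Groups did not overlap for 8 of the 11 genes in monocytes, against 54.6% of the panel, and for 6 in macrophages, against 58.6%. The 8 include CR1, which reached the floor in Mono_Vehicle alone, and the 6 include C1QB. The median log2 change of the 11 genes was 0.05 in monocytes, beside -0.03 for the panel, and 0.28 in macrophages, beside -0.03. Centring each sample on its median turned the panel's calls from 64 higher and 84 lower to 104 and 65 in monocytes, and from 85 and 95 to 152 and 74 in macrophages. With it, complement genes were 5 higher and 1 lower in monocytes and 7 higher and 0 lower in macrophages. With quantile normalization, complement genes were 3 higher and 3 lower in monocytes and 4 higher and 1 lower in macrophages. After scaling by reference genes they were 2 higher and 3 lower in monocytes and 5 higher and 1 lower in macrophages. The absence of called falls in macrophages thus depended on the scaling. Leaving out single samples gave 3 to 5 calls among complement genes in monocytes and 4 or 5 in macrophages.

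**Figure D2:**
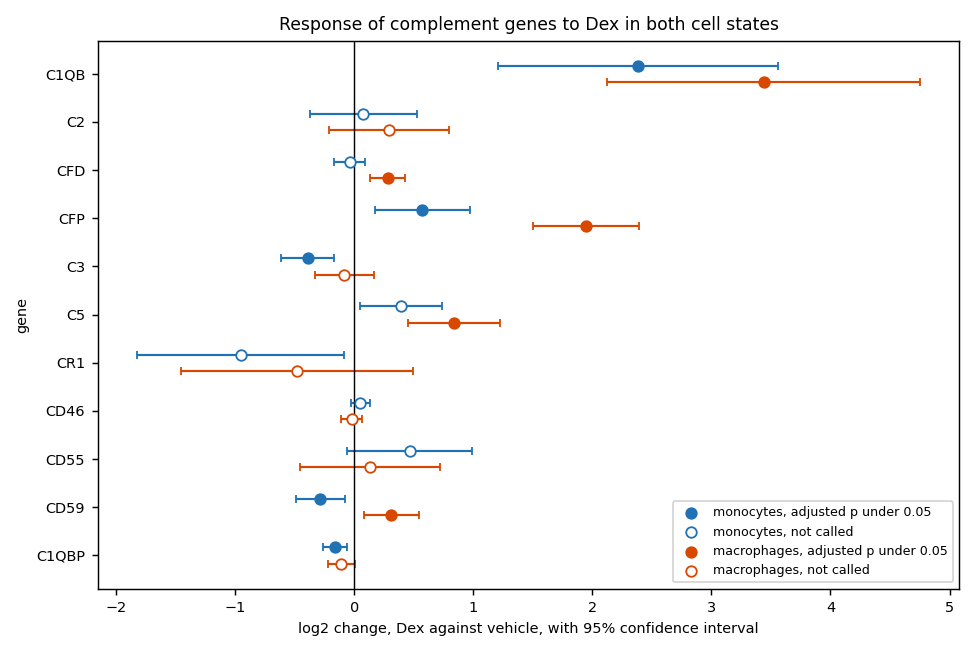
Log2 change with Dex, with its 95% confidence interval, for the 11 detected complement genes in monocytes (blue) and macrophages (orange). Filled points passed an adjusted p of 0.05, and the intervals of CFD, CFP and CD59 lie apart in the 2 states.

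The responses themselves differed between the states for 3 complement genes, CFP, CD59 and CFD, each more positive in macrophages. Their share, 3 of 11, is near the 25.9% of the panel (98 of 379 probes) for which this difference was called. After median-centring the panel's differences went from 51 positive and 47 negative calls to 73 and 42. For C1QB, C2, C3, C5, CR1, CD46, CD55 and C1QBP the difference did not pass, which does not show that the responses were alike. The interval of the difference was widest for C1QB, from -0.71 to 2.82 in log2, and narrowest for CD46, from -0.19 to 0.05.

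Macrophages and monocytes differed in most of the detected complement genes, as in most of the panel. With vehicle, C2, C3, CD46, CD55 and CD59 were higher in macrophages and CFD, CFP and C5 lower, 8 calls of 11 beside 84.7% of the panel (65.2% higher, 19.5% lower). With Dex, C1QB joined the higher genes, CFD alone was lower, and CFP and C5 did not pass, 7 calls of 11 beside 79.7% of the panel (61.7% higher, 17.9% lower). C1QB was tested only through Mac_Dex, where it was high. With a floor of 50 units, which leaves out C1QB, CR1 and CD55, 4 genes were higher and 1 lower. Groups did not overlap for 8 of the 11 genes with vehicle and 8 with Dex, against 85% and 85.8% of the panel. These comparisons share samples with the Dex comparisons. The direction of small state differences depended on the scaling. The median log2 difference of all tested probes was 0.72 with vehicle and 0.75 with Dex as deposited, -0.20 and -0.09 after median-centring, -0.24 and -0.17 with quantile normalization, and 0.48 in both after scaling by 15 reference genes. The panel's calls with vehicle went from 247 higher and 74 lower to 149 and 178 with median-centring and 147 and 180 with quantile normalization. With Dex they went from 234 and 68 to 145 and 168, 142 and 185, and, with the reference genes, 208 and 101. The calls of the complement genes also depended on the scaling. With vehicle, 5 higher and 3 lower became 2 and 7 under both median-centring and quantile normalization. With the reference genes they were 5 and 4. With Dex, 6 and 1 became 2 and 5 with median-centring, 2 and 6 with quantile normalization and 4 and 3 with the reference genes. Relative to the median probe as deposited, the 11 genes had a lower median difference, 0.37 with vehicle and 0.30 with Dex. C2 and CD59 were higher and CFD lower under all 4 scalings in both comparisons, and CFP and C5 lower under all 4 with vehicle. The summed signal of the 12 monocyte and macrophage markers also rose with the state, from 5831 to 5940 units in Mono_Vehicle to 36258 to 40635 in Mac_Vehicle. MSR1, the macrophage scavenger receptor, went from a mean of 1.00 to 9677 units. Not every marker of the list rose with vehicle: CCR2 fell from a mean of 1939 to 553 units, CX3CR1 had means of 359 and 356, and MRC1 stayed low. The summed NK-cell list went from between 1610 and 1646 units in Mono_Vehicle to between 3304 and 3725 in Mac_Vehicle, almost all of it NCAM1, and the endothelial, platelet and hepatocyte-type list from between 4930 and 5042 to between 7815 and 8571, almost all of it PECAM1. With Dex, the NK-cell gene GNLY had means of 15.9 and 528 units in vehicle and Dex monocytes, and of 114 and 799 in vehicle and Dex macrophages. The part of these shifts in the complement differences was not tested. In RNA from whole cultures, fewer expressing cells and less RNA per cell cannot be told apart.

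**Figure D3:**
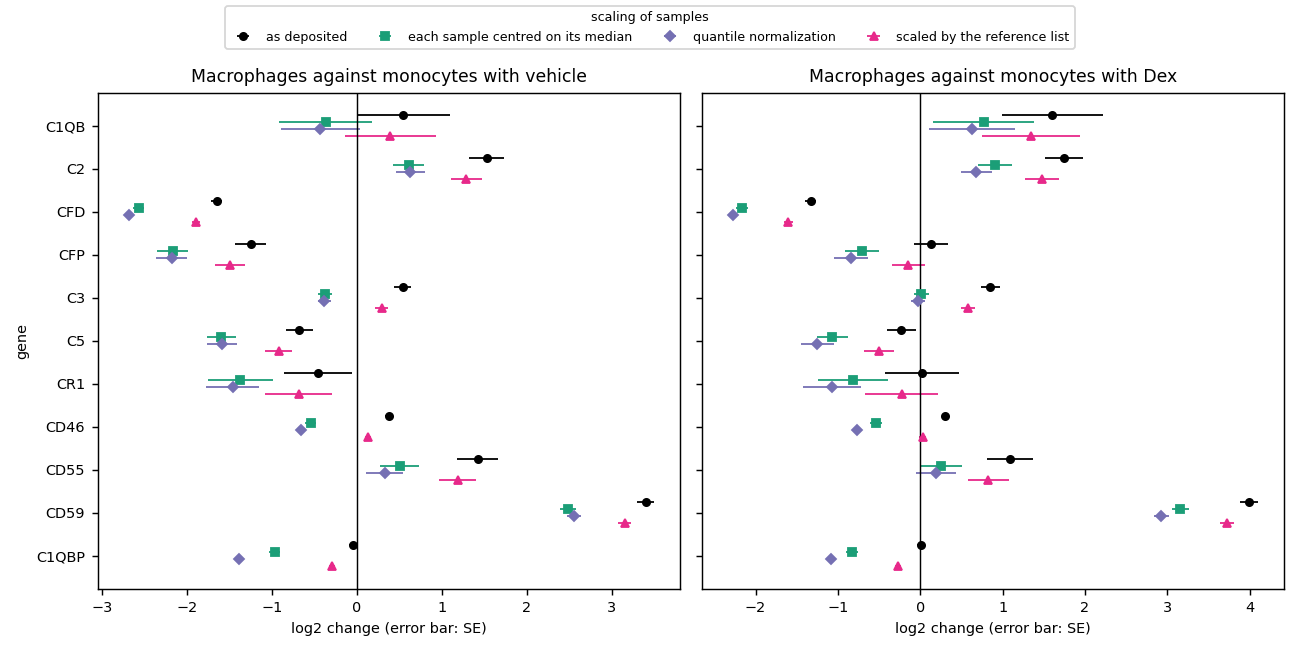
Log2 difference of macrophages against monocytes (error bars are SE) for each detected complement gene with vehicle (left) and with Dex (right), under 4 scalings of the samples. CD59 and C2 stay right of 0 and CFD left of 0 in both panels, while C1QB, C3 and CD46 change side with vehicle.

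Among the classical-pathway genes, C1QB, which encodes the B chain of the recognition molecule C1q, appeared with Dex. It read 1.00, 2.04 and 1.30 units in Mono_Vehicle, 15.9, 7.11 and 13.5 in Mono_Dex, 1.21, 7.92 and 1.22 in Mac_Vehicle, and 43.9 and 31.6 in Mac_Dex. Every Dex sample of macrophages lay above every vehicle sample, and the same held in monocytes, but only Mac_Dex passed the floor. C1QB was therefore tested only because of the group in which it was high. In macrophages C1QB was at least 1.89-fold higher with Dex, counting the vehicle group at the floor (log2 change 3.44, SE 0.61, limma adjusted p = 0.000306). In monocytes the log2 change was 2.38 (SE 0.55, limma adjusted p = 0.00277), and since both groups were under the floor it gives no fold and no detectable level. Its size followed the pseudocount, at 0.93 with a pseudocount of 10 and 0.58 with 20 in monocytes, and 1.85 and 1.30 in macrophages, all called. The Mac_Dex values correspond to 29.8 and 20.8 net counts (the value divided by the sample factor), so their precision is low. The difference of the C1QB responses, 1.06 (adjusted p = 0.397), was called with a pseudocount of 20 (0.73, adjusted p = 0.0269). The change from monocytes to macrophages under Dex (1.60, limma adjusted p = 0.0264) was no longer called without Mono_Dex replicate 3 (1.29, adjusted p = 0.102) or Mac_Dex replicate 1 (1.37, adjusted p = 0.131), and under none of the other 3 scalings (0.63 to 1.34, adjusted p from 0.0553 to 0.274). The A chain gene C1QA stayed under the floor, with a highest value of 14.8 units, and C1QC was not analysed here.

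The promoter windows of C1QB and CFP are shown because these genes had the largest log2 changes with Dex in macrophages among the 11. Each runs from 250 bases before to 50 after an annotated start, in RefSeq's GRCh38.p14, and is written along the gene's strand. Capitals mark the letters AGAACA on either strand, 1 arm of the glucocorticoid response element. The C1QB window lies at chr1:22652986-22653285 on the plus strand, with the match from base -232 to -227 relative to the start, and the CFP window at chrX:47629881-47630180 on the minus strand, with the match from -115 to -110.
C1QB: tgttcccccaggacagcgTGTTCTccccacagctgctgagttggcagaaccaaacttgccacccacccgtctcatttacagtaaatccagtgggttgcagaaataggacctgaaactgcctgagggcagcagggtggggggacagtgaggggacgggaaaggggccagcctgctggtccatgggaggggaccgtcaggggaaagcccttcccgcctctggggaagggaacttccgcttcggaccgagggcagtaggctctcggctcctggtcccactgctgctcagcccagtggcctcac
CFP: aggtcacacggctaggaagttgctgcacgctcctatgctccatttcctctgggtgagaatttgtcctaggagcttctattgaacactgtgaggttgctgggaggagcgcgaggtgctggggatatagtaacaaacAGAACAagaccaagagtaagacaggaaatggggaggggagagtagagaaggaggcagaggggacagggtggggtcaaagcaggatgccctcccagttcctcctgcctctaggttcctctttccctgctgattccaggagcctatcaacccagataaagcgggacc
A second annotated CFP window held no match. Those 6 letters are common: 14.8% of all 35116 promoter windows in the table hold them. Of the 10 detected complement genes with a window, 4 had a match, C1QB, CFP, CD46 and C1QBP, of which CD46 was not called with Dex in either state. Some of these genes have more than 1 window, so a count of genes cannot be set against a share of windows. The whole element, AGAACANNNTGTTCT, which contains the arm, was in none of their windows and in 1 of all 35116. A match is a description of the letters and not evidence of a binding site.

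C2 encodes the serine protease of the classical and lectin C3 convertase. It read 30.9, 31.3 and 36.2 units in Mono_Vehicle and 28.4, 37.0 and 39.1 in Mono_Dex, against 114, 103 and 75.7 in Mac_Vehicle and 107 and 130 in Mac_Dex. All macrophage samples lay above all monocyte samples, and vehicle and Dex overlapped within each state. Macrophages were 2.97-fold higher with vehicle (32.8 ± 2.96 to 97.5 ± 19.5 units, SD, n = 3 each) and 3.41-fold higher with Dex. The smallest log2 difference under any scaling was 0.61 with vehicle, after median-centring, and 0.68 with Dex, after quantile normalization, both called. The Dex change of C2 did not pass in monocytes (0.08, 95% confidence interval -0.37 to 0.53) or macrophages (0.30, -0.21 to 0.80), though it was called in macrophages after median-centring (0.52, adjusted p = 0.0391).

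C1QBP encodes a mitochondrial protein that can bind the globular heads of C1q. Its level moved little, with 3930, 3676 and 3657 units in Mono_Vehicle and 3363, 3339 and 3361 in Mono_Dex. It read 3699, 3702 and 3486 in Mac_Vehicle and 3234 and 3505 in Mac_Dex. The monocyte samples with Dex all lay below those with vehicle, while the macrophage groups overlapped. In monocytes C1QBP fell by 0.16 on the log2 scale (SE 0.05, limma adjusted p = 0.0115), a call lost without Mono_Vehicle replicate 1 (-0.13, adjusted p = 0.0645) and after median-centring (-0.02, adjusted p = 0.844). The call was also lost with a replicate block, a term for each replicate number (-0.15, limma adjusted p = 0.169). In macrophages the change was -0.11 (adjusted p = 0.10028). It was called without Mac_Vehicle replicate 5 (-0.14, adjusted p = 0.0335), without Mac_Dex replicate 5 (-0.17, adjusted p = 0.0435) and with the reference genes (-0.11, adjusted p = 0.0214). The state differences of C1QBP, -0.05 with vehicle and 0.01 with Dex, did not pass as deposited but were called lower under each of the other 3 scalings. The difference of its responses to Dex, 0.05, was called with quantile normalization (0.29, adjusted p = 0.00716).

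C3, whose cleavage is the meeting point of the 3 pathways, was expressed in every sample. It read 276, 241 and 273 units in Mono_Vehicle, 189, 201 and 211 in Mono_Dex, 432, 379 and 343 in Mac_Vehicle, and 337 and 389 in Mac_Dex. Monocytes with Dex formed the lowest group without overlap, and the macrophage groups overlapped each other. C3 fell 1.31-fold in monocytes, from 263 ± 19.4 to 200 ± 10.9 units (SD, n = 3 each; log2 change -0.39, SE 0.10, limma adjusted p = 0.00738), and this was called under all 4 scalings. With the replicate block the fall of C3 was not called (-0.33, limma adjusted p = 0.140). In macrophages the change was -0.08 (95% confidence interval -0.33 to 0.17). The difference between the 2 responses, 0.31, did not pass (adjusted p = 0.170), but was called after median-centring (0.39, adjusted p = 0.0280) and quantile normalization (0.35, adjusted p = 0.0268). As deposited, C3 was higher in macrophages, 1.46-fold with vehicle (adjusted p = 0.000250) and 1.81-fold with Dex. With vehicle it was lower after median-centring (-0.38, adjusted p = 0.000563) and quantile normalization (-0.38, adjusted p = 0.000307), and with Dex it was not called under either (0.013 and -0.029).

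The alternative-pathway genes CFD and CFP were both lower in macrophages with vehicle, and both rose with Dex there. CFP encodes properdin, which stabilizes the alternative C3 convertase. It read 90.0, 85.6 and 79.7 units in Mono_Vehicle, 132, 123 and 126 in Mono_Dex, 28.6, 47.7 and 31.8 in Mac_Vehicle, and 134 and 144 in Mac_Dex. Vehicle-treated macrophages were the lowest group and both Dex groups the highest, with no overlap between Dex and vehicle in either state. Properdin transcript rose 3.85-fold in macrophages (36.1 ± 10.2, n = 3, to 139 ± 7.32 units, n = 2, SD; log2 change 1.95, SE 0.21, limma adjusted p = 2.49e-06) and 1.49-fold in monocytes (85.1 ± 5.18 to 127 ± 4.37 units, SD, n = 3 each; 0.57, SE 0.18, adjusted p = 0.0232). The rise was larger in macrophages by 1.38 in log2 (SE 0.28, limma adjusted p = 0.00219). Under the other scalings this difference was 1.45, 1.33 and 1.34, each called.

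The rise of CFP in monocytes was not called without certain single samples: its adjusted p was 0.0606 without Mono_Vehicle replicate 3, 0.0799 without Mono_Vehicle replicate 6, 0.0718 without Mono_Dex replicate 2 and 0.0565 without Mono_Dex replicate 6 (log2 changes 0.53 to 0.58). Nor was this rise called with the replicate block (0.47, limma adjusted p = 0.218). CFP was 2.36-fold lower in macrophages than in monocytes with vehicle (log2 -1.25, adjusted p = 2.1e-05), and the log2 difference was -2.16 after median-centring and -2.18 with quantile normalization. With Dex the level in macrophages was 1.09-fold that in monocytes, a difference that did not pass (0.13, adjusted p = 0.586). That last value turned to a called fall after median-centring (-0.71, adjusted p = 0.00466) and quantile normalization (-0.84, adjusted p = 0.00178), and was -0.14 with the reference genes.

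CFD encodes factor D, the protease that cuts factor B and is secreted in active form. It read 2356, 2172 and 2203 units in Mono_Vehicle, 2212, 2156 and 2194 in Mono_Dex, 708, 768 and 671 in Mac_Vehicle, and 820 and 920 in Mac_Dex. All monocyte samples lay above all macrophage samples. Macrophages were 3.14-fold lower with vehicle (2244 ± 98.3 to 716 ± 49.1 units, SD, n = 3 each; log2 change -1.65, SE 0.06, limma adjusted p = 3.52e-12) and 2.51-fold lower with Dex. The log2 difference with vehicle was -2.56 after median-centring and -2.68 with quantile normalization, and with Dex -2.17 and -2.27 against -1.33 as deposited. Dex raised CFD 1.22-fold in macrophages (716 ± 49.1, n = 3, to 870 ± 70.5 units, n = 2, SD; 0.28, SE 0.07, limma adjusted p = 0.00301). The monocyte groups overlapped (-0.04, 95% confidence interval -0.17 to 0.09). The macrophage rise of CFD ended without Mac_Dex replicate 5 (0.20, adjusted p = 0.0538) and in a fit of the macrophage groups alone (adjusted p = 0.0600). The difference of the responses, 0.32 (adjusted p = 0.0202), had an adjusted p of 0.0569 without Mono_Vehicle replicate 1, 0.0506 without Mono_Dex replicate 3, 0.104 without Mac_Dex replicate 5 and 0.0606 with no mean-variance trend. With the replicate block this difference was 0.34 (limma adjusted p = 0.163).

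Of the 7 terminal-pathway genes, C5 was the one detected, the precursor of the chemoattractant C5a and the first component of the membrane attack complex. It read 99.5, 101 and 110 units in Mono_Vehicle, 122, 127 and 162 in Mono_Dex, 62.6, 57.6 and 73.3 in Mac_Vehicle, and 126 and 106 in Mac_Dex. Each Dex group lay above its vehicle group without overlap. C5 rose 1.80-fold in macrophages (64.5 ± 8.0, n = 3, to 116 ± 14.3 units, n = 2, SD; log2 change 0.84, SE 0.18, limma adjusted p = 0.00130), and under the other 3 scalings it was called with changes of 0.80 to 1.06. In monocytes the change was 0.39 (95% confidence interval 0.05 to 0.74, adjusted p = 0.0660). That value was called after median-centring (0.54, adjusted p = 0.0156), with quantile normalization (0.47, adjusted p = 0.0428) and in a fit of the monocyte groups alone (adjusted p = 0.0485). The difference of the responses did not pass (0.45, adjusted p = 0.202). With vehicle, macrophages had 1.60-fold less C5 than monocytes (log2 -0.68, adjusted p = 0.00123), with log2 differences of -1.59 after median-centring and -1.58 with quantile normalization. With Dex the C5 difference did not pass as deposited (-0.23, adjusted p = 0.253) but was called lower under the other 3 scalings (-0.50 to -1.25).

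Of the membrane regulators, CD59 showed the largest contrast between the states among the 11 detected genes. CD59 blocks assembly of the membrane attack complex. It read 99.5, 84.8 and 95.5 units in Mono_Vehicle, 70.4, 78.5 and 80.2 in Mono_Dex, 1077, 974 and 924 in Mac_Vehicle, and 1223 and 1235 in Mac_Dex. Macrophages lay far above monocytes, and no group overlapped another. The difference was 10.6-fold with vehicle (93.2 ± 7.62 to 992 ± 78.0 units, SD, n = 3 each; log2 change 3.40, SE 0.10, limma adjusted p = 1.97e-13) and 16.1-fold with Dex, and under the other scalings the log2 difference stayed at 2.48 to 3.15 with vehicle.

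Dex moved CD59 in opposite directions in the 2 states. It fell 1.22-fold in monocytes (log2 change -0.28, SE 0.10, limma adjusted p = 0.0294) and rose 1.24-fold in macrophages (0.31, SE 0.11, limma adjusted p = 0.0265), and the responses differed by 0.60 (SE 0.14, limma adjusted p = 0.00754). The difference was called under all 4 scalings and without each single sample, but not with the replicate block (0.48, limma adjusted p = 0.151). The separate changes were less firm. The fall of CD59 had an adjusted p of 0.106 without Mono_Vehicle replicate 1, 0.0839 without Mono_Vehicle replicate 6 and 0.114 without Mono_Dex replicate 2 (log2 changes -0.23 to -0.27). It was also lost after median-centring (-0.14, adjusted p = 0.243), with quantile normalization (-0.15, adjusted p = 0.148) and in a fit of the monocyte groups alone (adjusted p = 0.0682). The rise of CD59 ended without Mac_Vehicle replicate 3 (0.30, adjusted p = 0.0719) or replicate 5 (0.26, adjusted p = 0.0796), without Mac_Dex replicate 1 (0.32, adjusted p = 0.0970) or replicate 5 (0.31, adjusted p = 0.0984), and with quantile normalization (0.22, adjusted p = 0.0532). Neither the fall nor the rise was called with the replicate block (-0.19 and 0.29, limma adjusted p = 0.328 and 0.112).

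A CD59 promoter window is shown because it held 3 matches to the AP-1 site, TGANTCA on either strand, the sequence bound by factors that phorbol esters activate. It lies at chr11:33722678-33722977 on the minus strand of GRCh38.p14, and capitals mark the matches, from base -117 to -111, from -23 to -17 and from 4 to 10 relative to the start.
CD59: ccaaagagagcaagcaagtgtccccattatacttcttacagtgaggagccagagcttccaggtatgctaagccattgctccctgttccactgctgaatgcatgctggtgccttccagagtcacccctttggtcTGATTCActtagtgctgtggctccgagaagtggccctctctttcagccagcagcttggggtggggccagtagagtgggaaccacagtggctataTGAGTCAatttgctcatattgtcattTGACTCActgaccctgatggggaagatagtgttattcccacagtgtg
CD59 has 4 windows in the table, and the other 3 held none of the motifs. Of the 10 detected complement genes with a window, CD59 was the one with an AP-1 match, and 7.71% of all 35116 windows hold at least 1. The first is a count of genes and the second a share of windows, so they are not on 1 scale. The files do not say which start these cells use, so the letters describe a window and nothing about its activity.

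CD46, a cofactor for cleavage of C3b and C4b, was the steadiest of the regulators. It read 2014, 1993 and 2013 units in Mono_Vehicle, 2083, 2052 and 2108 in Mono_Dex, 2632, 2615 and 2554 in Mac_Vehicle, and 2546 and 2580 in Mac_Dex. The Mono_Dex samples lay just above Mono_Vehicle, and the macrophage groups overlapped. Dex changed CD46 by 0.05 in monocytes (95% confidence interval -0.03 to 0.13) and -0.02 in macrophages (-0.11 to 0.07), neither called as deposited. After median-centring CD46 was called higher with Dex in monocytes (0.20, adjusted p = 0.0258) and in macrophages (0.20, adjusted p = 0.0291), and with quantile normalization lower in macrophages (-0.17, adjusted p = 0.00968). Its state difference was 1.30-fold with vehicle and 1.23-fold with Dex, higher in macrophages (limma adjusted p = 3.45e-07 and 1.23e-05). That direction turned after median-centring, at -0.54 in both comparisons, and with quantile normalization, at -0.65 with vehicle and -0.77 with Dex, and with Dex it was not called with the reference genes (0.026, adjusted p = 0.543).

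CD55, which speeds the decay of C3 convertases, was low. It read 19.4, 12.9 and 16.4 units in Mono_Vehicle, 21.8, 18.7 and 28.0 in Mono_Dex, 46.9, 42.0 and 45.2 in Mac_Vehicle, and 48.3 and 49.8 in Mac_Dex. Macrophage samples all lay above monocyte samples, and Mac_Dex just above Mac_Vehicle. CD55 was at least 2.24-fold higher in macrophages with vehicle (log2 change 1.42, SE 0.24, limma adjusted p = 9.29e-05) and 2.15-fold higher with Dex (adjusted p = 0.00224). The calls ended after median-centring (0.51, adjusted p = 0.0513, and 0.25, adjusted p = 0.366) and with quantile normalization (0.33, adjusted p = 0.167, and 0.19, adjusted p = 0.460). With the replicate block the call between states with Dex ended as well (0.92, limma adjusted p = 0.0938). The Dex change of CD55 did not pass in monocytes (0.46, 95% confidence interval -0.06 to 0.99) or macrophages (0.13, -0.46 to 0.72), but was called in monocytes after median-centring (0.61, adjusted p = 0.0420).

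CR1, the receptor for C3b and C4b, sat at the floor. It read 17.5, 19.6 and 25.7 units in Mono_Vehicle, 8.52, 8.07 and 15.2 in Mono_Dex, 10.4, 25.0 and 12.3 in Mac_Vehicle, and 7.13 and 14.9 in Mac_Dex. Mono_Dex lay below Mono_Vehicle without overlap, and the macrophage groups overlapped. Only Mono_Vehicle reached the floor, with a mean of 20.9 units. CR1 was therefore tested only because of the group in which it was highest, and comparisons with Mono_Vehicle share that choice. The change in monocytes was -0.95 in log2 (95% confidence interval -1.82 to -0.08, limma adjusted p = 0.0785) and in macrophages -0.48 (-1.45 to 0.49). In monocytes it was called without Mono_Dex replicate 6 (-1.22, adjusted p = 0.0442), with quantile normalization (-0.89, adjusted p = 0.0321) and in a fit of the monocyte groups alone (adjusted p = 0.0354). The state difference of CR1 with vehicle did not pass as deposited (-0.45, adjusted p = 0.307) and was called lower after median-centring (-1.37, adjusted p = 0.00313) and quantile normalization (-1.46, adjusted p = 0.000738).

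**Figure D4:**
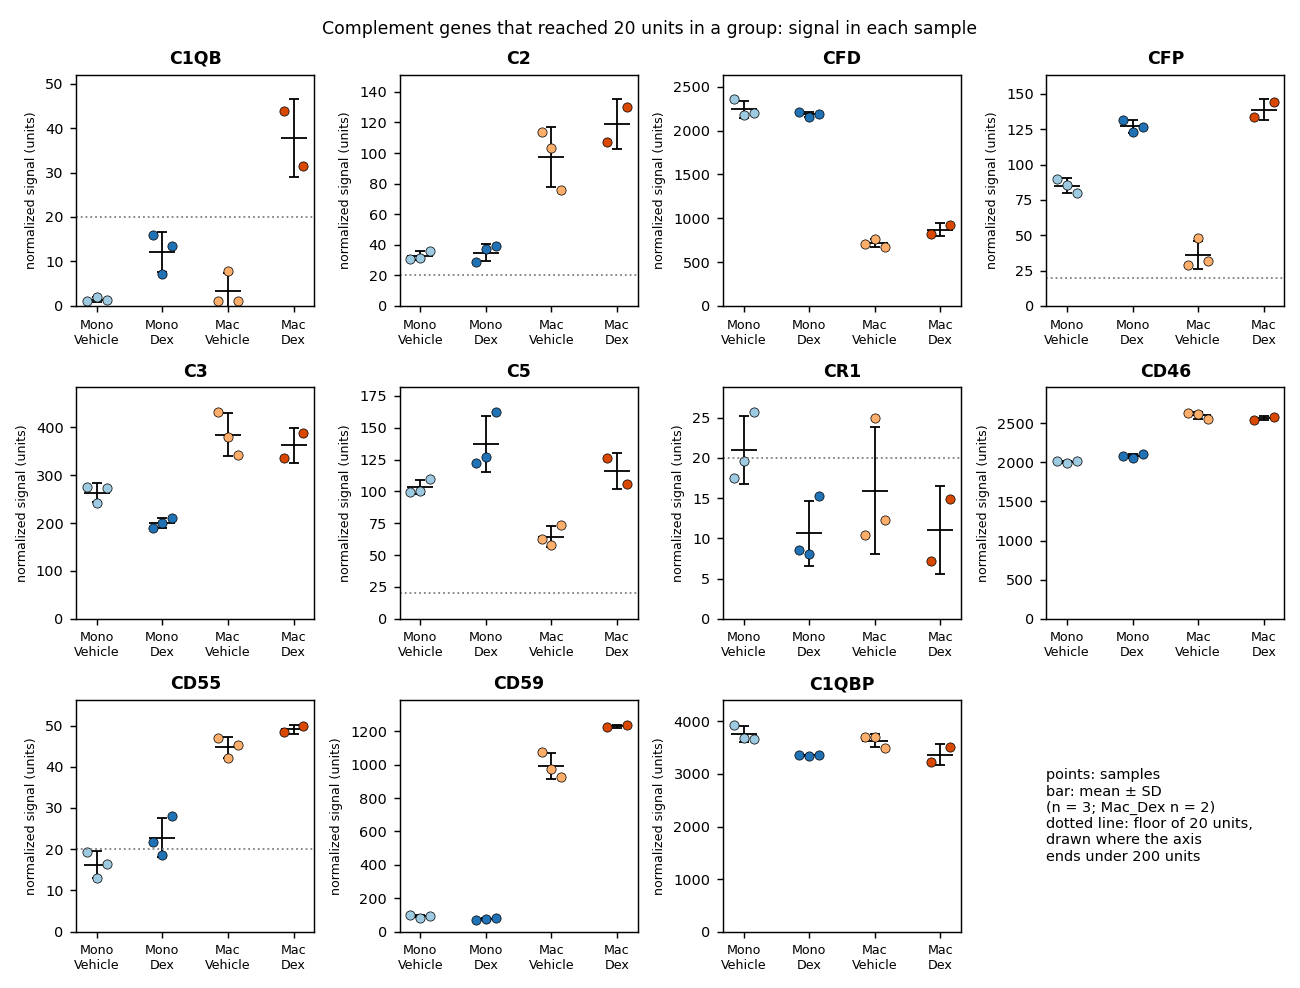
Normalized signal of the 11 detected complement genes in each sample (points), with group mean ± SD (bars; n = 3, and 2 for Mac_Dex), on linear axes from 0. C1QB stands above the floor in Mac_Dex alone, CFP is lowest in Mac_Vehicle, and CD59 separates macrophages from monocytes.

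Beyond the set, 3 integrin chains that bind complement fragments were described. ITGAM and ITGB2 form complement receptor 3 and ITGAX pairs with ITGB2 as complement receptor 4, both binding fragments of C3. All of these integrin chains were higher in macrophages in both comparisons, ITGAM by 11.2-fold, ITGAX by 9.69-fold and ITGB2 by 6.17-fold with vehicle (limma adjusted p = 9.46e-15, 1.89e-13 and 3.85e-15). ITGAM fell 1.24-fold with Dex in monocytes, from 108 ± 4.14 to 86.7 ± 1.80 units (SD, n = 3 each; limma adjusted p = 0.00387). Its change in macrophages did not pass (adjusted p = 0.114), nor did the Dex changes of ITGAX and ITGB2 in either state.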

How the data were processed

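RNA of 11 samples was measured by nCounter. The deposited values are a normalized signal per probe; per the labels' series text the authors passed all samples through the quality control of nSolver, NanoString's software. Which version, reference genes and background rule they used is not given in the sources used here. In every sample 100% of low endogenous values lay within 0.1 of a step on a regular grid whose step, the sample factor, was 0.659 to 0.965 in monocytes and 1.21 to 1.52 in macrophages; net counts are values divided by it. Whole counts were not recovered, because the background is unknown. Samples were grouped by title. Replicates correlated at Pearson r from 0.984 to 0.992 across probes on the log2 scale, and no pair agreed within sampling noise (chi-square per degree of freedom 1.54 to 15.8).

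All 379 endogenous probes with a group mean of at least 20 units were fitted on log2(value + 1) with limma 3.58.1 in R 4.3.3 (lmFit, eBayes with trend, all groups in 1 fit), with Benjamini-Hochberg adjustment over these probes in each of 5 comparisons and calls at an adjusted p under 0.05. Log2 changes are on that scale and understate or distort changes of low genes. A fold is a ratio of group means, with a mean under 20 set to 20 and "at least" written. On simulated data with 100 of 379 probes changed by 1 in log2, the fit recovered 90% for Dex in monocytes and 84% for Dex in macrophages. False probes made up 5.26% and 3.45% of the calls. All simulated samples were drawn around the Mono_Vehicle means, so the macrophage figures hold for its group sizes and not for macrophage levels. Alternatives were median-centring, quantile normalization, scaling by 15 reference genes, pseudocounts of 10 and 20, no floor, a floor of 50, no trend, the compared groups alone, a replicate block and leaving out each sample. Every member is accounted for, with values for those above the floor; FKBP5 and a list of complement-binding genes were the others fixed for naming, and 1 result of that list is not reported here, and the lineage markers were fixed lists too. The members and lists were chosen with earlier results of these data known. Of 31 members, 30 matched a RefSeq symbol, and 10 of the 11 above the floor had promoter windows.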

Additional observations from a re-analysis of the deposited data

Results flagged for a closer look

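The Dex responses of 3 complement genes differed between the cell states by the interaction term of the limma fit. CFP was more positive in macrophages by 1.38 in log2, CD59 by 0.60 and CFD by 0.32. With the replicate block the differences of CD59 and CFD were not called. The samples of Mac_Dex had been kept by the authors for their response. Over the panel, 25.9% of probes had such a difference called.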

How the results depend on the processing

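Under the alternatives, 1129 member values were recomputed. Many came from fits without 1 sample outside the compared groups, where the log2 change could not move. Unchanged values thus partly follow from the design. Of the 1129, 1023 kept their direction and side of the threshold, 42 lost and 27 gained a call, and 23 changed sign without being called. The others turned around a call, all through scaling. With median-centring these were CD46 with Dex in macrophages (0.20), C3 (-0.38) and CD46 (-0.54) between states with vehicle, and CFP (-0.71), CD46 (-0.54) and C1QBP (-0.83) between states with Dex. Quantile normalization gave C3 (-0.38) and CD46 (-0.65) with vehicle, and CFP (-0.84), C3 (-0.029), CR1 (-1.07), CD46 (-0.77) and C1QBP (-1.09) with Dex; the reference genes gave C1QBP (-0.27) with Dex. The cause was not tested. For numbers of called complement genes, quantile normalization raised the differences between responses from 3 to 5. Without the floor, state calls went from 8 to 14 with vehicle and from 7 to 12 with Dex, over all 31 genes; the table's lowest value is 1 in monocytes and higher in macrophages, so genes at that limit differ by construction. Replicate numbers are shared by some samples. Deviations from the group mean were correlated between samples. For Mono_Vehicle against Mono_Dex, same-numbered pairs gave 0.23 and 0.18, the other pairs -0.28 to 0.07. For Mono_Vehicle against Mac_Vehicle, same-numbered pairs gave 0.15 and -0.03, the others -0.15 to 0.09. The 2 Mac_Dex samples deviate as mirror images, so their same-numbered values against Mac_Vehicle (-0.28 and -0.41) say nothing on pairing. Whether equal numbers mark paired cultures was not tested. With a replicate block, monocytes had 1 call instead of 5 for Dex and the differences 1 instead of 3, and over the panel 49 differences instead of 98. The calls not made with it were CFP (0.47), C3 (-0.33), CD59 (-0.19) and C1QBP (-0.15) for Dex in monocytes, CD59 (0.29) for Dex in macrophages, CD55 (0.92) between states with Dex, and the differences of CD59 (0.48, adjusted p = 0.151) and CFD (0.34, adjusted p = 0.163). Leaving out 1 sample at a time gave 3 to 5 member calls for Dex in monocytes and 4 to 5 in macrophages, 8 between states with vehicle, 6 to 7 with Dex, and 2 to 3 differences. The precision of C1QB, CR1 and CD55 is limited by values near the floor, and that of Mac_Dex by its 2 samples.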
